A study of Mus musculus with 12 samples.

Results

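The genes described are 37 genes of the integrated stress response, chosen by symbol from 24881 usable entries in the expression tables. Of these, 20 encode the cytosolic aminoacyl-tRNA synthetases and 17 encode ATF4, related stress transcription factors and targets of ATF4. All 37 were found, each at 1 locus. RNA-seq had been run on leukaemia cells that carried the MLL-AF9 fusion transgene and were sorted from mouse bone marrow by their GFP, 1 mouse per library. MLL-AF9 joins the start of the histone methyltransferase gene MLL to AF9 and drives an acute myeloid leukaemia in mice. The transgene and the GFP sort were common to every group. Vehicle mice (n = 5) received vehicle in place of chemotherapy. The iCT mice (n = 3) were sampled 3 days after induction chemotherapy with doxorubicin and cytarabine had ended, and the relapse mice (n = 4) 10 days after it had ended. Doxorubicin poisons topoisomerase II and cytarabine is a cytidine analogue that stalls DNA synthesis. The sources used here give no mouse age, strain or number of leukaemia clones. The iCT cells are those that could still be sorted after treatment, so a shift in which cells remained and a change within cells cannot be told apart, nor can fewer cells of a type and less RNA per cell.

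In the integrated stress response, kinases that sense missing amino acids, misfolded protein, haem deficiency or double-stranded RNA phosphorylate the initiation factor eIF2. Most translation then slows, while ATF4 messenger RNA is translated more efficiently, and the ATF4 protein, paired with a C/EBP factor, switches on genes that import and make amino acids, charge transfer RNAs and feed back on the response. The cytosolic synthetases join each amino acid to its transfer RNA, and several of them sit together in the multi-synthetase complex. ATF4 activity is set mostly by translation, so the messenger RNA levels here do not measure it. Background on each gene below is textbook knowledge and was not measured here.

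ATF4 and C/EBP partners bind composite elements whose core was searched here as TGATGNAA, with its reverse complement TTNCATCA, in windows from 250 bases before to 50 bases after the RefSeq transcription start (GRCm38.p6). Windows were available for 28 members, 9 had none, and 12 of the 28 (42.9%) held at least 1 match, against 1219 of 27025 genes (4.51%) and 3.97% of all windows of that length. The share was 5 of 13 synthetases (38.5%) and 7 of 15 other members (46.7%). Many of the other members are textbook ATF4 targets, some of them known for such an element, so this share is a description of the list. The stretches below are parts of those windows upstream of the start, on the gene's own strand and 5′ to 3′, with the matches in capitals. They are shown because they carry the shared letters. They include 2 genes that rose after chemotherapy (Aars and Tars) and a gene that fell between iCT and relapse (Slc7a11). The rest are named targets that did not pass in the model over all 12 libraries (Asns and Chac1) or were too low to test (Atf3).
Aars, chr8:111033694-111033773, plus strand: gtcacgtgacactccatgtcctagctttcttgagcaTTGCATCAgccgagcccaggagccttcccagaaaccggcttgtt
Tars, chr15:11399659-11399709, minus strand: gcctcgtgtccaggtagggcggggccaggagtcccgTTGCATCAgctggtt
Slc7a11, chr3:50443617-50443715, minus strand: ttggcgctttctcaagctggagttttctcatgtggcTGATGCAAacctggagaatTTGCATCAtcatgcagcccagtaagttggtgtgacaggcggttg
Asns, chr6:7693210-7693268, minus strand: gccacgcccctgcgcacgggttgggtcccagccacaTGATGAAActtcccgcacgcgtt
Chac1, chr2:119351013-119351092, plus strand: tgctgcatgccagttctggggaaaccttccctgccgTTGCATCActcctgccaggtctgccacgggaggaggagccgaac
Atf3, chr1:191183400-191183479, minus strand: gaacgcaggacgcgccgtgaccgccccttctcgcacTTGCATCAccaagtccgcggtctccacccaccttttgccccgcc
Slc7a11 alone among the 6 shows a match on each strand within the printed stretch. The Aars window held a further match just after the start, which is not printed. Among members with a window, a match was present in 2 of 5 that rose after chemotherapy (40%), in 7 of 20 that were tested and did not rise (35%) and in 3 of 3 that were too low to test (100%).

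The library of iCT mouse 1 stood apart. The intervals deposited with the values implied 361914 fragments in it against 1225254 to 8359793 in the other libraries, and a typical gene expressed at 1 FPKM or more had 13.8 fragments there (median) and 43.9 to 293 elsewhere. FPKM is a fragment count scaled to transcript length and library total. All 10 myeloid leukaemia markers (Ptprc, Itgam, Spi1, Mpo, Kit, Cd34, Hoxa9, Meis1, Hoxa10 and Csf1r) were detected in every library. Their summed level was 2453 to 3688 FPKM in vehicle, 2810 to 3199 in iCT and 2558 to 4438 in relapse. Mpo alone was at 1915 to 3087, 2204 to 2695 and 1807 to 3764 FPKM in these groups, so the sum largely follows Mpo. In iCT 8 of the 10 had a negative change (median -0.19), with Spi1 higher and Kit and Cd34 lower past the threshold (Kit from 24.3 to 27.5 FPKM across the vehicle mice to 5.60 to 8.72). Markers of other marrow cells differed in the iCT libraries, where 3.31% of all genes tested were higher and 6.31% lower. The summed level of 9 osteoclast markers was 20.1 to 37.3 FPKM in vehicle, 158 to 681 in iCT and 30.9 to 91.9 in relapse, with Calcr under 1 FPKM in every library, and 5 of the 7 tested rose. The sum of 11 tissue macrophage markers was 157 to 210 FPKM in vehicle, 181 to 336 in iCT and 115 to 139 in relapse. Of the 9 tested, 6 rose and 1 (Adgre1) fell, which the sum hides. Adgre1 was at 72.8 to 87.4 FPKM in vehicle and 14.2 to 31.8 in iCT. C1qa, which rose, was at 1.91 to 6.78 FPKM in vehicle and 21.9 to 74.6 in iCT. The sum of 10 mature neutrophil markers was 3815 to 14521 FPKM in vehicle, 14423 to 18936 in iCT and 6529 to 15401 in relapse. S100a8 alone was at 1716 to 6085 FPKM in vehicle and 5911 to 8877 in iCT. Of the 10, 7 had a positive change and 3 a negative one, and 3 rose past the threshold (Cxcr2, Lcn2 and Mmp9). Retnlg was at 16.6 to 190 FPKM in vehicle and 5.92 to 46.1 in iCT. Erythroid markers summed to 14.9 to 289 FPKM in vehicle, 4.09 to 12.3 in iCT and 46.7 to 165 in relapse. Of the B and plasma cell markers 1 of 3 tested (Cd79b) fell and 0 rose. Of the stromal and endothelial markers 1 of 5 tested (Pecam1) fell and 0 rose. The 1 T and natural killer cell marker tested did not pass. The marker differences and the iCT results below come from the same libraries. Whether they vary together from mouse to mouse, and the markers' part in those results, were not tested.

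In untreated leukaemia the synthetases were all well expressed. Mean levels in vehicle ran from 12.9 ± 1.20 FPKM (SD, n = 5) for Cars, the cysteinyl enzyme, to 144 ± 14.7 for Dars, the aspartyl enzyme. FPKM is per transcript length, so these levels can be set side by side. Kars, the lysyl enzyme, was next below Dars at 130.3 ± 12.8 FPKM, which was within the spread of the pair. The glutaminyl enzyme Qars stood at 92.7 ± 8.63 FPKM. The 20 genes together summed to 1114 to 1230.3 FPKM in the vehicle mice.

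The other 17 members covered a far wider range in vehicle. Eif4ebp1, which encodes the translation repressor 4E-BP1, stood at 88.4 ± 5.71 FPKM (SD, n = 5), Atf4 at 75.6 ± 8.13 and the asparagine synthetase gene Asns at 48.7 ± 2.24. The transporter genes Slc7a5 and Slc3a2 lay at 41.9 ± 4.16 and 39.5 ± 5.66 FPKM, closer to each other than their spreads. Well below these were the stress effectors Ddit4 at 6.26 ± 1.38 FPKM, Ddit3 at 3.74 ± 1.53 and Sesn2 at 2.99 ± 0.754. Chac1, Ppp1r15a, Nupr1, Atf3 and Trib3 had vehicle means near or under 1 FPKM, and Vldlr, a lipoprotein receptor, was at or near 0.

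Setting iCT beside vehicle shows how these genes stood 3 days after chemotherapy. Of the 34 members with enough signal to test, 10 rose and 0 fell, where 3.31% of all genes tested rose and 6.31% fell. The 34 were all 20 synthetases and 14 of the 17 others. The synthetase genes Wars, Tars, Aars, Cars and Hars rose by 0.47 to 0.67 on the log2 scale. Among the others, Atf4 itself, the growth regulators Sesn2 and Eif4ebp1 and both chains of the leucine exchanger, Slc7a5 and Slc3a2, rose by 0.42 to 1.20. Ddit3, Chac1 and Asns did not pass, and Atf3 and Trib3 were too low to test.

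By limma with Benjamini-Hochberg adjustment over 11019 genes, 5 of 20 synthetases and 5 of 14 other members passed as higher (10 of 34), whereas 3.31% of all genes tested were higher, 6.31% lower and 9.62% either. The median log2 change was 0.24 over the synthetases, of which 19 of 20 had a positive change, and 0.47 over the 14 others, of which 12 were positive. The median over all genes was -0.08. In 14 members every iCT mouse lay above every vehicle mouse, as in 5.49% of all genes, and in 0 members every iCT mouse lay below, against 10.6% of all genes. After median-of-ratios scaling 8 synthetases rose, where 4.51% of all genes were higher. With array weights 3 synthetases and 2 others rose (1.31% of all genes). With only these groups in the model, 1 synthetase (Wars) and 0 others rose (1.1%).

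Without the shallow iCT mouse 1, 3 synthetases (Wars, Tars and Hars) and 3 others (Atf4, Slc7a5 and Slc3a2) still passed, where 2.11% of all genes were higher. The genes that no longer passed were Aars, Cars, Sesn2 and Eif4ebp1, with adjusted p of 0.0578, 0.0663, 0.0532 and 0.0719. Each kept a positive change. Without iCT mouse 2, 8 synthetases and 7 others passed, where 8.9% of all genes were higher. Median differences from the vehicle mean were 0.30, 0.24 and 0.25 over the synthetases in iCT mice 1, 2 and 3, and ran from -0.10 to 0.05 in the vehicle mice. Over the other members they were 0.63, 0.37 and 0.45, against -0.10 to 0.12 in vehicle. The 3 iCT mice thus lay above the 5 vehicle mice for both sets, as the plot of medians in each mouse shows.

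**Figure D1:**
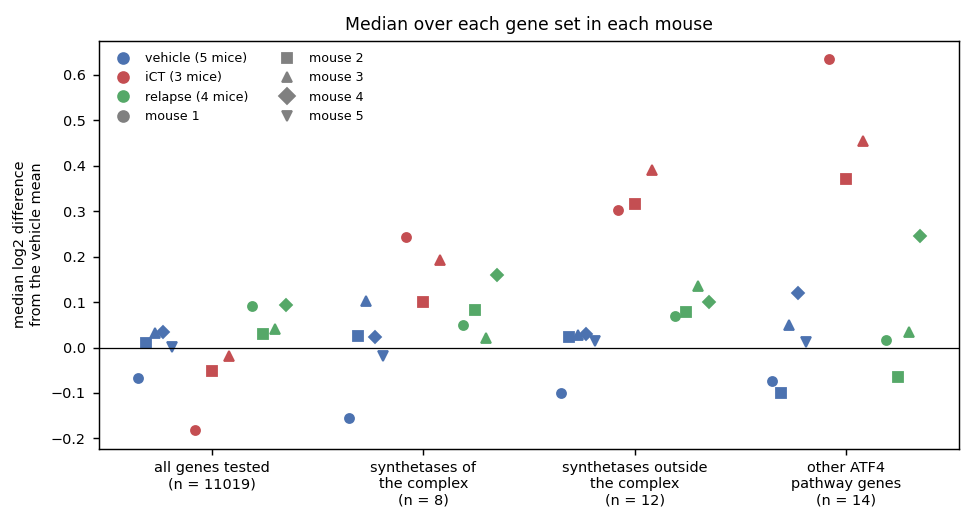
Median log2 difference from the vehicle mean in each mouse (y axis) over all genes tested, the synthetases of the multi-synthetase complex, the synthetases outside it and the other ATF4 pathway genes (x axis). Points are mice, coloured by group; the iCT points run from 0.30 to 0.39 for synthetases outside the complex, above the vehicle points at -0.10 to 0.03, while the iCT points over all genes run from -0.18 to -0.02.

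Atf4 stood first among the transcription factors. Its locus is chromosome 15, 80255184 to 80257545, and all coordinates are in GRCm38. Atf4 was at 67.1, 69.6, 78.1, 87.8 and 75.4 FPKM in vehicle mice 1 to 5, at 211, 109.7 and 107 in iCT mice 1 to 3, and at 89.3, 69.0, 69.3 and 78.0 in relapse mice 1 to 4. Every iCT mouse was above every other mouse, with mouse 1 far above the rest, while relapse and vehicle overlapped. The log2 change in iCT against vehicle was 0.84 (SE 0.19, adjusted p = 0.0214). Leaving out iCT mouse 1 gave 0.52 (adjusted p = 0.0321). The call was lost with array weights (0.55, adjusted p = 0.0725), which give that mouse a weight of 0.1001, and with only these groups in the model (adjusted p = 0.0677).

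Atf5, a paralogous factor that is also translated preferentially under stress, was at 19.7 to 25.7 FPKM in vehicle, 64.1, 28.5 and 25.7 in iCT and 19.2 to 28.4 in relapse. The iCT mice lay above vehicle, mouse 3 only just. The change of 0.69 (SE 0.24) did not pass (adjusted p = 0.0893) and was 0.29 without iCT mouse 1. Atf5 shares 239 bases with Nup62 on the other strand, and the sources used here do not say whether counting used strand, so its level is uncertain.

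Ddit3 encodes CHOP, a factor linked to death under prolonged stress. Its levels were 5.19, 3.90, 1.18, 3.88 and 4.53 FPKM in vehicle, 0, 4.02 and 4.95 in iCT and 4.74, 5.06, 4.44 and 4.60 in relapse. The groups overlapped, and the 0 was in the shallow library, where it can be a missed transcript. The log2 change in iCT was -0.53 (SE 0.50, adjusted p = 0.489), and 0.29 (adjusted p = 0.63) without that library. Ddit3 shares 68 bases with the more abundant synthetase gene Mars on the other strand, so it is uncertain too.

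Atf3, an immediate stress factor, was at 0, 1.05, 0.412, 0.733 and 0.295 FPKM in vehicle, 0, 0.163 and 0.0717 in iCT and 0.176, 0.118, 0.186 and 0.268 in relapse. Only 1 library reached 1 FPKM and Atf3 was not tested. Nupr1, a small stress-induced chromatin protein, was at 0 to 1.24 FPKM across the 12 libraries, with a log2 change of 0.24 (SE 0.37, adjusted p = 0.683).

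Sesn2 and Eif4ebp1 restrain growth, Sesn2 through mTORC1 as a leucine sensor and Eif4ebp1 as a repressor of cap-dependent translation. Sesn2, also a p53 target (chromosome 4, 132492807 to 132510456), was at 2.80, 1.83, 3.87, 3.25 and 3.20 FPKM in vehicle, 9.80, 4.51 and 11.5 in iCT and 4.59, 3.17, 5.65 and 4.46 in relapse. The iCT mice were all above vehicle, but iCT mouse 2 lay within the relapse range. Its change was the largest of the 10, at 1.20 (SE 0.27, adjusted p = 0.0186). It missed the threshold without iCT mouse 1 (1.08, adjusted p = 0.0532) and without iCT mouse 3 (0.975, adjusted p = 0.0511).

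Eif4ebp1 (chromosome 8, 27260327 to 27275656) was at 96.1, 88.1, 91.0, 86.3 and 80.7 FPKM in vehicle, 142, 104 and 114 in iCT and 85.6, 85.1, 89.9 and 88.8 in relapse. Every iCT mouse was above all others. The log2 change was 0.42 (SE 0.10, adjusted p = 0.0253). It was 0.30 without iCT mouse 1 (adjusted p = 0.0719), and the call was also lost without vehicle mouse 4 or 5.

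The remaining feedback genes did not pass. Ddit4, which encodes REDD1, an inhibitor of mTORC1, was at 4.82 to 8.37 FPKM in vehicle, 1.62, 6.49 and 7.38 in iCT and 5.91 to 12.5 in relapse. Its log2 change of -0.39 (SE 0.35, adjusted p = 0.465) became 0.15 without iCT mouse 1, where the value rested on about 1 implied fragment. Ppp1r15a, which encodes GADD34, the phosphatase subunit that reverses eIF2 phosphorylation, was at 0.350 to 1.45 FPKM in vehicle, 0, 1.17 and 1.91 in iCT and 1.004 to 2.20 in relapse. Trib3, a pseudokinase that binds ATF4, was at 0.152, 0, 0.790, 0.264 and 0.0708 FPKM in vehicle, 0, 0.208 and 0.275 in iCT and 0.508, 0.284, 0.803 and 0.386 in relapse, under 1 FPKM throughout and not tested.

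**Figure D2:**
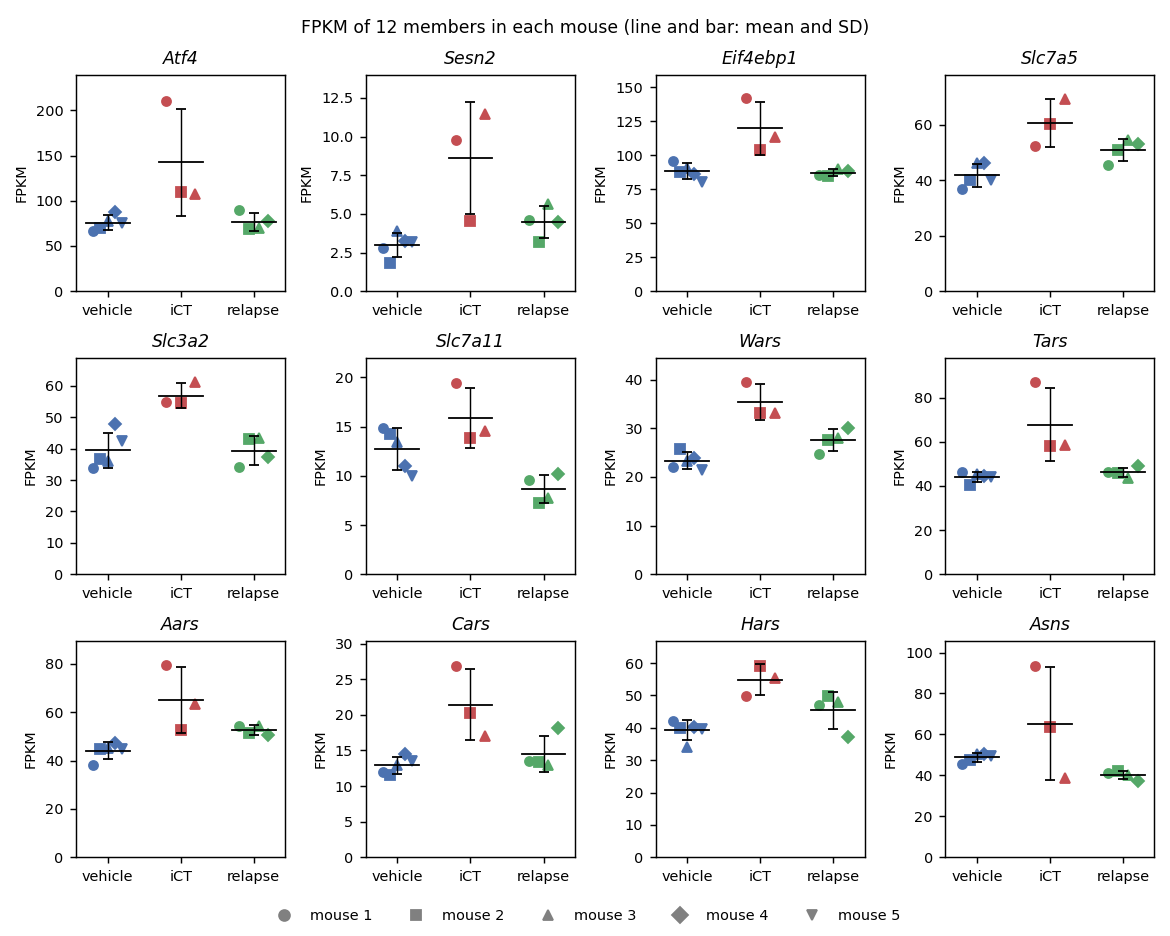
FPKM of 12 members in each mouse (y axes start at 0) by group (x axis), with marker shape for the mouse number, a line at the group mean and a bar for the SD. The 3 iCT mice lie above the 5 vehicle mice for all panels except Slc7a11 and Asns, and iCT mouse 1 is the highest point for Atf4, at 211 FPKM.

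Among the transporters, both chains of the leucine exchanger passed in iCT and Slc7a11 and Slc7a1 did not. Slc7a1 nevertheless changed by as much as the exchanger chains (0.52), with a wider SE. Slc7a5, the light chain that carries leucine and other large neutral amino acids (chromosome 8, 121881146 to 121907686), was at 36.9, 40.0, 46.3, 46.1 and 39.9 FPKM in vehicle, 52.3, 60.3 and 69.4 in iCT and 45.4, 50.8, 54.4 and 52.9 in relapse. Here iCT mouse 1 was the lowest of the 3. The log2 change was 0.52 (SE 0.12, adjusted p = 0.0188), and 0.62 without iCT mouse 1. The adjusted p was 0.0504 without iCT mouse 3.

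Slc3a2, the heavy chain that brings Slc7a5 and Slc7a11 to the membrane (chromosome 19, 8706882 to 8723369), was at 34.0, 36.8, 36.2, 47.9 and 42.4 FPKM in vehicle, 54.8, 54.5 and 61.4 in iCT and 34.1, 42.9, 43.4 and 37.2 in relapse. All 3 iCT mice were above all others. The change was 0.53 (SE 0.13, adjusted p = 0.0251) and 0.55 without iCT mouse 1. The call was lost without vehicle mouse 2 or 3 or iCT mouse 3.

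Slc7a11, the cystine importer that feeds glutathione synthesis (chromosome 3, 50364936 to 50443613), was at 14.9, 14.3, 13.4, 10.98 and 9.99 FPKM in vehicle, 19.4, 13.8 and 14.5 in iCT and 9.62, 7.21, 7.72 and 10.2 in relapse. The iCT and vehicle mice overlapped, and relapse lay low, reaching into the vehicle range in 1 mouse. Its change in iCT did not pass (0.30, SE 0.17, adjusted p = 0.252), and was 0.16 without iCT mouse 1. Slc7a1, a carrier of arginine and lysine, was at 19.9 to 27.7 FPKM in vehicle and at 47.8, 22.3 and 38.5 in iCT, with a change of 0.52 (SE 0.20, adjusted p = 0.106). It was 0.29 (adjusted p = 0.378) without iCT mouse 1 and passed without iCT mouse 2 (adjusted p = 0.0042).

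Asns, the enzyme that makes asparagine (chromosome 6, 7675171 to 7693182), was at 45.4, 47.6, 50.4, 50.7 and 49.7 FPKM in vehicle, 93.4, 63.8 and 38.5 in iCT and 41.0, 42.1, 40.1 and 37.2 in relapse. The iCT mice lay on both sides of the tight vehicle range. The log2 change was 0.33 (SE 0.20, adjusted p = 0.288), 0.03 without iCT mouse 1 and 0.65 (adjusted p = 0.0162) without iCT mouse 3.

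Chac1, which encodes a glutathione-degrading enzyme, was at 0.205, 1.64, 2.67, 1.31 and 0.287 FPKM in vehicle, 12.3, 2.25 and 1.21 in iCT and 1.14, 0.920, 0.603 and 1.56 in relapse. Only iCT mouse 1 stood out, where the value rested on about 7 implied fragments with a 95% interval of 3.00 to 21.6 FPKM. The change was 1.17 (SE 0.52, adjusted p = 0.152), and 0.40 without that mouse. Vldlr stayed at or under 0.0780 FPKM in every library and was not tested.

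Among the synthetases, the 5 that rose in the model over all 12 libraries were all outside the multi-synthetase complex. Wars, the tryptophanyl enzyme (chromosome 12, 108860030 to 108894174), was at 22.1, 25.8, 23.3, 23.9 and 21.5 FPKM in vehicle, 39.6, 33.2 and 33.1 in iCT and 24.8, 27.5, 27.9 and 30.1 in relapse. The iCT mice were above all others, and relapse overlapped vehicle. The log2 change was 0.57 (SE 0.11, adjusted p = 0.00795) and 0.49 (adjusted p = 0.0197) without iCT mouse 1. Wars is also known as an interferon-induced gene.

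Tars, the threonyl enzyme (chromosome 15, 11383663 to 11399658), was at 46.2, 40.3, 45.6, 44.6 and 44.2 FPKM in vehicle, 86.9, 57.9 and 58.5 in iCT and 46.3, 46.1, 43.6 and 48.8 in relapse. The iCT mice were above all others, and relapse lay almost on vehicle. The change was 0.58 (SE 0.13, adjusted p = 0.0164) and 0.39 (adjusted p = 0.0256) without iCT mouse 1. Tars and Wars were the synthetases that passed whichever single library was left out.

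Aars, the alanyl enzyme (chromosome 8, 111033842 to 111055569), was at 38.1, 44.8, 45.3, 47.5 and 44.9 FPKM in vehicle, 79.4, 52.5 and 63.4 in iCT and 54.4, 51.5, 54.3 and 50.5 in relapse. Both chemotherapy groups were above every vehicle mouse, and they overlapped each other. The change in iCT was 0.53 (SE 0.12, adjusted p = 0.0214).

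Cars, the cysteinyl enzyme (chromosome 7, 143557230 to 143600090), was at 11.9, 11.6, 13.0, 14.5 and 13.5 FPKM in vehicle, 26.9, 20.3 and 17.1 in iCT and 13.6, 13.3, 12.9 and 18.2 in relapse. The iCT mice were above vehicle, and 1 relapse mouse lay among them. The change was 0.67 (SE 0.16, adjusted p = 0.0238).

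Hars, the histidyl enzyme, was at 42.2, 40.1, 33.9, 40.4 and 39.8 FPKM in vehicle, 49.8, 59.2 and 55.5 in iCT and 47.1, 49.7, 47.8 and 37.1 in relapse. The iCT mice were above all others, although iCT mouse 1 and relapse mouse 2 were nearly level. The change was 0.47 (SE 0.12, adjusted p = 0.0272), and the call was lost without vehicle mouse 3 or 5 or iCT mouse 3.

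Nars, Yars and Mars, the asparaginyl, tyrosyl and methionyl enzymes, were also higher in every iCT mouse than in any vehicle mouse. Their changes of 0.34, 0.37 and 0.24 did not pass (adjusted p = 0.0559, 0.0762 and 0.163). Yars lay at 27.2 to 35.8 FPKM in vehicle and at 47.7, 36.02 and 36.7 in iCT, so the gap was narrow, and its change was 0.24 without iCT mouse 1. Of the remaining synthetases, Rars had a change of 0.41, Lars 0.35 (0.20 without iCT mouse 1) and Gars 0.25, and Farsa, Farsb, Iars, Vars, Qars, Eprs, Kars and Sars had 0.02 to 0.20. Dars, the aspartyl enzyme of the complex, was the 1 synthetase with a negative change, -0.31 (SE 0.12, adjusted p = 0.103), at 122, 127 and 100.1 FPKM in iCT against 122 to 159 in vehicle.

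The 8 synthetases of the multi-synthetase complex (Dars, Eprs, Iars, Kars, Lars, Mars, Qars and Rars) had a median change of 0.15, and 0 passed. The 12 outside it had a median of 0.35, with 5 passing and 12 positive, where 3.31% of all genes were higher. This split of the calls did not hold in every alternative. Of the complex, Rars passed after median-of-ratios scaling (0.45, adjusted p = 0.0435), where 4.51% of all genes were higher. Lars passed without iCT mouse 2 (0.49, adjusted p = 0.0188), where 8.9% were higher. Summed levels of the 12 outside the complex were 572 to 626 FPKM in vehicle, 738 to 778 in iCT and 646 to 671 in relapse. There was no overlap between any of the 3 groups. The gap between relapse and vehicle depends on scaling, since after median-of-ratios scaling the median differences over the 12 genes were -0.04 to 0.09 in relapse and -0.02 to 0.02 in vehicle, which overlap. Summed levels of the 8 were 542 to 610 FPKM in vehicle, 585 to 616 in iCT and 547 to 602 in relapse, which overlapped. Whether the subgroups differed from each other was not tested. The complex's scaffold genes Aimp1, Aimp2 and Eef1e1 had changes of -0.52, 0.42 and -0.01 (-0.09, 0.22 and -0.09 without iCT mouse 1), and 0 of 3 passed.

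**Figure D3:**
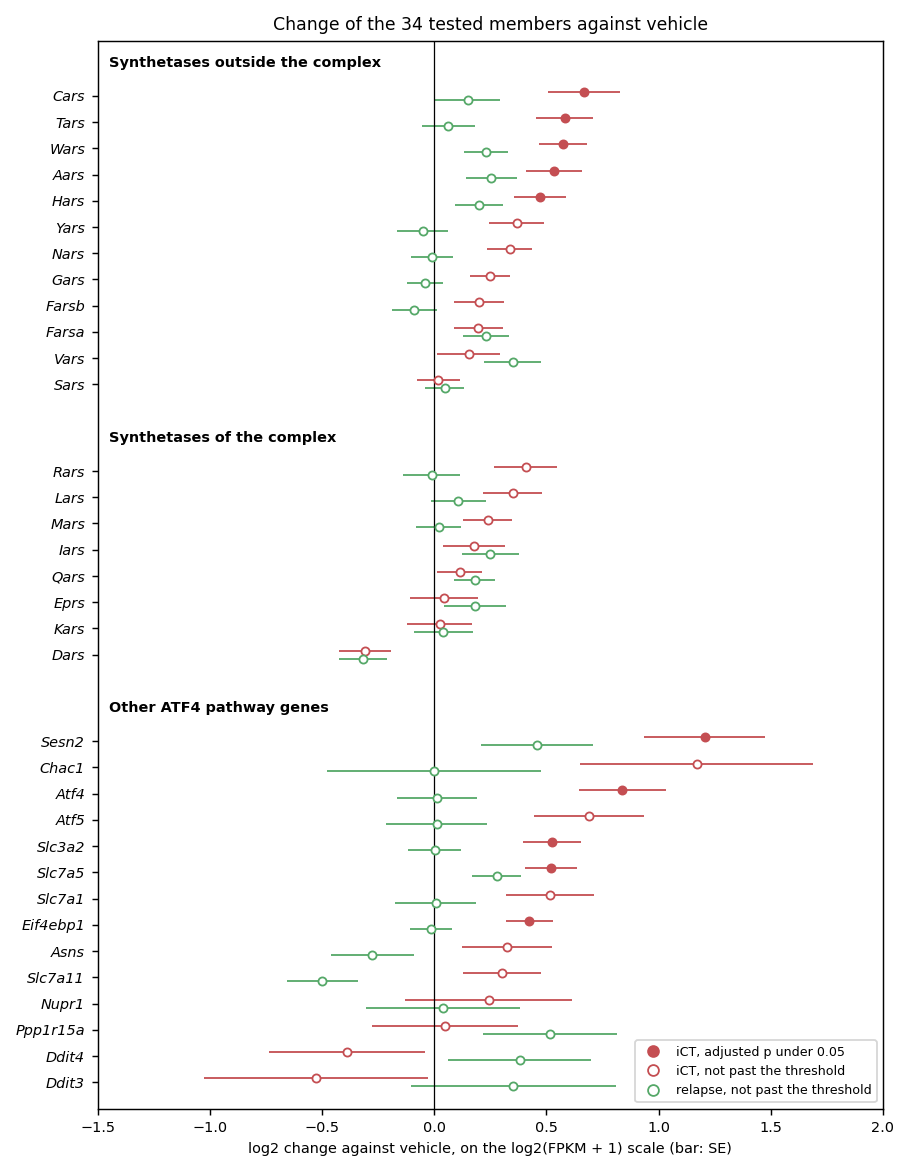
Log2 change against vehicle, on the log2(FPKM + 1) scale, for the 34 tested members in iCT (red) and relapse (green); bars are the SE and filled points passed the adjusted threshold of 0.05. Filled points appear for 5 synthetases outside the complex and 5 other members in iCT, and for no member in relapse (0); both comparisons use the same vehicle mice.

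The 2 sets were compared side by side. The other members had the larger median change in iCT (0.47 against 0.24) and the larger scatter between mice. The medians were 0.35 and 0.27 without iCT mouse 1, and 0.33 and 0.24 with no filter on low genes. Their median SD of log2 values was 0.609 within iCT and 0.213 within vehicle, where the synthetases had 0.185 and 0.127 and all genes 0.370 and 0.202. The other members changed by -0.53 to 1.20, the synthetases by -0.31 to 0.67. The difference between the sets was not tested, because genes are not replicates. In the map of members by mouse the deepest colours lie among the other members.

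**Figure D4:**
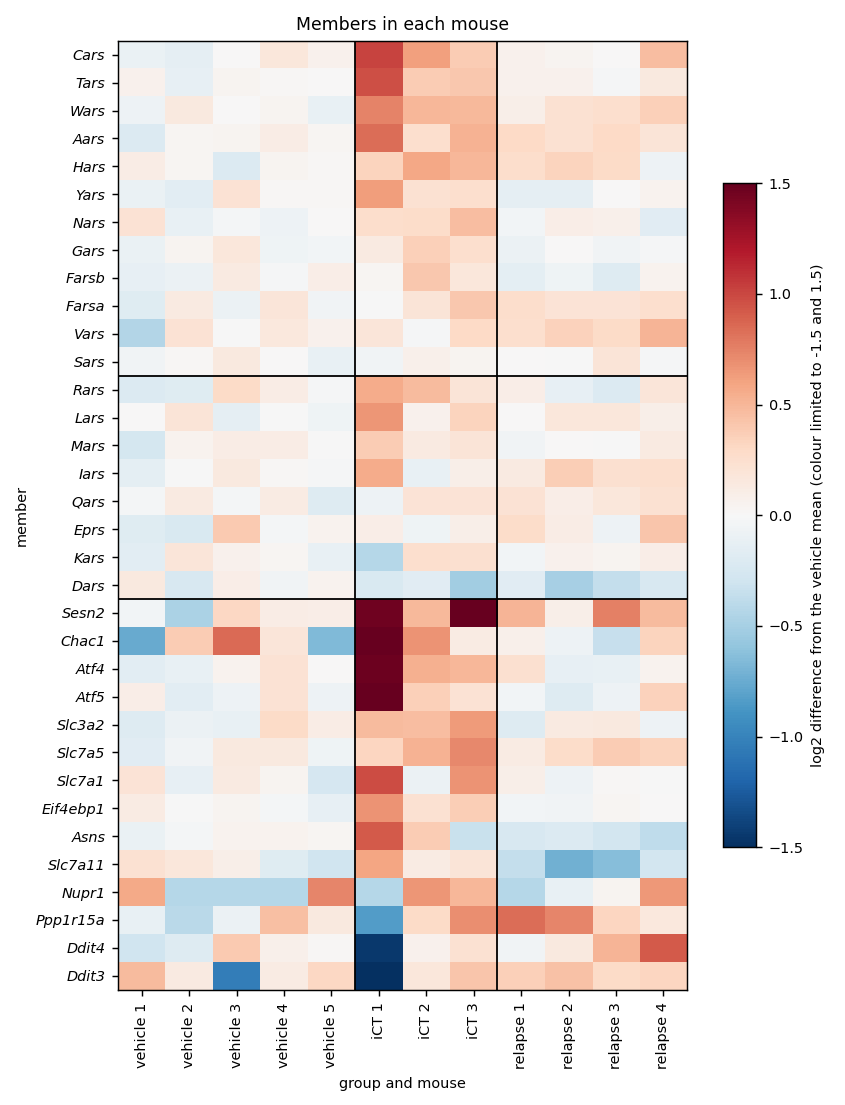
Log2 difference from the vehicle mean (colour, with the scale limited at both ends) for each tested member (rows; the lines separate synthetases outside the complex, synthetases of the complex and other members) in each mouse (columns; the lines separate vehicle, iCT and relapse). Strong colours lie in iCT mouse 1, where Atf4, Atf5, Chac1 and Sesn2 are high and Ddit3 and Ddit4 low. Sesn2 is higher still in iCT mouse 3 (11.5 FPKM, against 9.80 in iCT mouse 1).

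The genes around these members are set against the 3.31% of all genes higher and 6.31% lower in iCT. Of 17 mitochondrial synthetases 1 rose, the isoleucyl enzyme Iars2 (0.59, adjusted p = 0.0423; 0.34 and 0.110 without iCT mouse 1), with a median of 0.09. Of 16 genes for eIF2 kinases, phosphatases and the exchange factor 1 rose, Eif2b2 (0.44, adjusted p = 0.0487; 0.114 without iCT mouse 1), with a median of 0.03. Of 15 genes of the ER chaperone arm of the unfolded protein response, Sdf2l1 rose (0.47, adjusted p = 0.0131) and Dnajb9 fell (-0.74, adjusted p = 0.0359; 0.0967 without iCT mouse 1), with a median of 0.05. Of 27 further ATF4 targets 21 were tested, of which 3 rose and 2 fell, with a median of 0.18. Phgdh begins serine synthesis and ran from 14.3 to 26.2 FPKM in the vehicle mice and from 68.6 to 82.1 in iCT (higher by 1.77, SE 0.21, adjusted p = 0.000553), a larger change than that of any member. Cebpg, which encodes a partner of ATF4, fell (-0.60, adjusted p = 0.0284), as did Rab32, a small GTPase gene (-0.63, adjusted p = 0.0216; -0.40 and 0.0326 without iCT mouse 1). The other risers, Jdp2 and the serine synthesis gene Psat1 (0.61 and 0.33), are named after their values were seen, and both missed the threshold without iCT mouse 1 (adjusted p = 0.120 for each).

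Setting relapse beside vehicle shows where the genes stood 10 days after chemotherapy. No member passed as higher or lower. By limma 0 of 11019 genes passed (0% of all genes; lowest adjusted p = 0.173, with 1604 genes at an unadjusted p under 0.05), so the absence of calls was not particular to the members. That model drew a shared spread from every group. The median SD of log2 values over all genes was 0.370 in iCT, 0.202 in vehicle and 0.164 in relapse. A fit of vehicle and relapse alone called 612 of 10833 genes (5.65%), with Asns as the 1 member. The 0 calls therefore do not show that levels had returned to those of vehicle. The median log2 change was 0.09 over the synthetases and 0.01 over the other members, against 0.06 over all genes. Atf4 had a change of 0.01 (SE 0.18), Tars of 0.06 (SE 0.12), Eif4ebp1 of -0.02 (SE 0.09) and Slc3a2 of 0.00 (SE 0.12). The direction of each of these 4 turned in at least 1 of the alternatives, so none can be given.

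The share of members with every relapse mouse apart from vehicle was near that over all genes. Of 34 tested, 3 (Aars, Farsa and Vars) lay above the whole vehicle range in 4 of 4 relapse mice, against 9.72% of all genes. Their changes were 0.25, 0.23 and 0.35. Asns (1 of 34) was lower in all 4, against 4.03% of all genes, at 37.2 to 42.1 FPKM in relapse and 45.4 to 50.7 in vehicle. Its change was -0.28 (SE 0.19, adjusted p = 0.533), and it passed in a fit of vehicle and relapse alone (adjusted p = 0.0484), where 5.65% of all genes passed. Slc7a11 had the most negative change of the members, -0.50 (SE 0.16, adjusted p = 0.195). With array weights 8.81% of all genes passed and so did 4 members, Dars and Slc7a11 as lower and Iars and Slc7a5 as higher.

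The comparison of relapse with iCT asked what changed between 3 and 10 days. It shares its samples with the other comparisons, so it adds no independent evidence on either group. Tars, Atf4, Slc7a11, Slc3a2 and Eif4ebp1 fell, by 0.44 to 0.82 on the log2 scale, and none rose (0). Over all genes tested 3.1% fell and 6.62% rose. Tars fell by 0.52 (SE 0.13, adjusted p = 0.0297), Atf4 by 0.82 (SE 0.20, adjusted p = 0.0259) and Slc7a11 by 0.80 (SE 0.18, adjusted p = 0.0183). Slc3a2 fell by 0.52 (adjusted p = 0.0292) and Eif4ebp1 by 0.44 (adjusted p = 0.0256). For each of these genes every relapse mouse was below every iCT mouse. For Slc7a11 the relapse mean of 8.69 ± 1.45 FPKM (SD, n = 4) was also under the vehicle mean of 12.7 ± 2.12 (n = 5), whereas the relapse means of Atf4 and Tars lay within 1 SD of the vehicle mean.

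By limma 1 of 20 synthetases and 4 of 14 others passed as lower, where 3.1% of all genes were lower, 6.62% higher and 9.72% either. Relapse was below iCT in every mouse for 12 members, 8 of them synthetases (Gars, Hars, Mars, Nars, Rars, Tars, Wars and Yars), as in 6.33% of all genes, and above it for 0, against 16.9% of all genes. The median change was -0.26 over the synthetases and -0.52 over the others, while that over all genes was 0.16. Without iCT mouse 1 the first 2 medians were -0.175 and -0.33. The median over all genes moved to 0.06 under median-of-ratios scaling and to 0.02 under quantile normalization, and the split of higher and lower calls went from 729 and 342 to 494 and 516 and to 431 and 420. For iCT against vehicle the split of 365 and 695 became 497 and 616, and 526 and 570. Relative to those medians the synthetases stayed lower in relapse, and 8 of them passed after median-of-ratios scaling, where 4.68% of all genes were lower. Without iCT mouse 1 the calls for Tars (adjusted p = 0.0518) and Eif4ebp1 (adjusted p = 0.0623) were lost, and those for Atf4, Slc7a11 and Slc3a2 stayed (adjusted p = 0.0403, 0.0465 and 0.0454), where 2.18% of all genes were lower. The changes of Atf4 and Tars were then -0.51 and -0.33. The calls also depended on the relapse mice. Those for Tars and Eif4ebp1 were lost without any 1 of the relapse mice, Atf4 without relapse mouse 2, 3 or 4, Slc7a11 without relapse mouse 2 or 3, and Slc3a2 without relapse mouse 1 or 4 or iCT mouse 3. In a fit of iCT and relapse alone 0 members passed, where 0.97% of all genes were lower.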

How the data were processed

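Total RNA from GFP-sorted leukaemia cells was made into libraries with kits from NEB, per the labels' protocols. The submitters' processing notes name STAR, Cufflinks and mm9, but the loci in the tables lie on GRCm38 (99.4% of single-locus symbols overlap their GRCm38 gene). The authors deposited FPKM per gene with 95% intervals. Entries with a failed estimate were left out (2 of 24883). Fragments per value were implied from the intervals and cover counting error only; 47.8% to 51.1% of low values came out whole within 0.02, so no counts were recovered and no count test was run.

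Values were analysed as log2(FPKM + 1), which understates changes of low genes. The 11019 genes that reached 1 FPKM in 3 or more libraries were tested with limma 3.58.1 in R 4.3.3, with a variance trend, 1 model over 12 libraries, Benjamini-Hochberg adjustment over all genes and a threshold of 0.05. The members and lists were chosen with earlier results of these data known, so no test over a list was made. Values in every library are given for members past the threshold in any comparison and for Atf4, Atf3, Ddit3, Asns, Trib3, Chac1 and Slc7a11. From each surrounding list at most 3 genes by smallest p in iCT against vehicle are named, by range or change, apart from Jdp2 and Psat1. A further description gives genes in which every library of one group lies on one side of every library of the other. Each library is labelled as a separate mouse. Alternatives were pseudocounts of 0.1 and 0.5, quantile normalization, median-of-ratios scaling, no filter or one at 5 FPKM, array weights, the compared groups alone, a block on mouse number and leaving out each library. The fitting code was also run on simulated data, with the same spread in every group and planted changes larger than those of most members. It therefore does not cover the wider spread within iCT seen here.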

Additional observations from a re-analysis of the deposited data

Results flagged for a closer look

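In 5 of 74 member and group combinations with 4 or 5 mice, 1 mouse stood far from the others of its group; chance gives about 1 in 20. Aars was lowest in vehicle mouse 1 (38.1 FPKM, others 44.8 to 47.5). Hars was lowest in vehicle mouse 3 (33.9 FPKM, others 39.8 to 42.2). Ddit3 was also lowest in vehicle mouse 3 (1.18 FPKM, others 3.88 to 5.19), the shallowest vehicle library. Cars was highest in relapse mouse 4 (18.2 FPKM, others 12.9 to 13.6), and Sars was highest in relapse mouse 3 (46.1 FPKM, others 39.7 to 40.4).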

How the results depend on the processing

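The shallow library of iCT mouse 1 and the small groups limit these results, and depth limits Ddit3, Ddit4, Ppp1r15a, Nupr1 and Chac1 most, with a missed transcript possible at 0. The smaller pseudocounts (0.1 and 0.5) and either change of filter (none, or 5 FPKM) left every count over the members within 1.5 times of its value. The cause of the other shifts was not tested.

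In iCT against vehicle, of the 1060 genes called, array weights gave 457, the compared groups alone 351 and the block on mouse number (the replicate block) 197. Leaving out 1 library gave 569 (vehicle mouse 5) to 2722 (iCT mouse 2). Of the 5 synthetases called, median-of-ratios scaling gave 8, array weights 3, the groups alone 1 and the replicate block 0, with 3 to 8 when 1 library was left out. Of the 5 others, array weights gave 2, the groups alone 0 and the block 1, with 3 to 7 when 1 library was left out. Of all 11019 genes, 365 were higher in the model over all 12 libraries. Median-of-ratios scaling gave 497, array weights 144 and the block 68, and the groups alone gave 118 of 10723. Leaving out 1 library gave 194 (vehicle mouse 5) to 976 (iCT mouse 2) genes higher. In relapse against vehicle, of 0 genes called, no filter gave 1, array weights 971 and the groups alone 612, with 0 to 5 when 1 library was left out (5 without iCT mouse 1). Array weights called 2 synthetases and 2 others, and the groups alone 1 other member. In relapse against iCT, of 1071 genes called, array weights gave 603, the groups alone 252 and the block 372, with 529 (relapse mouse 2) to 1855 (iCT mouse 3) when 1 library was left out. Of 1 synthetase called, median-of-ratios scaling gave 8, quantile normalization 3, and array weights, the groups alone and the block 0, with 0 to 4 when 1 library was left out. Of 4 others, array weights gave 1 and the groups alone and the block 0, with 1 to 6 when 1 library was left out (1 without relapse mouse 2). Of all 11019 genes, 342 were lower in the model over all 12 libraries. Median-of-ratios scaling gave 516, quantile normalization 420, array weights 237 and the block 172, and the groups alone gave 104 of 10719. Leaving out 1 library gave 175 (relapse mouse 2) to 456 (iCT mouse 3) genes lower.

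Mouse numbers did not pair the libraries. Of 10 same-numbered pairs the correlations of deviations were -0.0911 to 0.099, and 0 of 12 libraries correlated best with its own number. The block therefore compares libraries that share only a number.

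The direction turned for members that did not pass in that comparison in the model over all 12 libraries. In the relapse comparisons, turns were looked for only among members past the threshold in any comparison and Ddit3, Asns and Chac1. In iCT against vehicle the log2 change was -0.025 for Sars with the block, 0.088 for Ddit3, 0.056 for Ddit4 and -0.046 for Asns with array weights, and -0.425 and -0.013 for Ppp1r15a with pseudocounts of 0.1 and 0.5. Leaving out 1 library gave -0.015 to 0.143 for Eprs, -0.013 to 0.324 for Iars, -0.092 to 0.247 for Kars, -0.010 to 0.056 for Sars, -0.995 to 0.291 for Ddit3, -0.693 to 0.145 for Ddit4 and -0.279 to 0.492 for Ppp1r15a. In relapse against vehicle, median-of-ratios scaling gave -0.008 for Tars, -0.058 for Atf4 and -0.070 for Slc3a2, and quantile normalization gave -0.030 for Slc3a2 and 0.007 for Eif4ebp1. Array weights gave -0.049 for Atf4, 0.056 for Chac1, -0.026 for Slc3a2 and 0.022 for Eif4ebp1, and pseudocounts of 0.1 and 0.5 gave 0.208 and 0.050 for Chac1. Leaving out 1 library gave -0.063 to 0.069 for Atf4, -0.191 to 0.211 for Chac1, -0.048 to 0.073 for Slc3a2 and -0.047 to 0.015 for Eif4ebp1. The 10 members that rose in iCT kept a positive change in every alternative tried.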
